A study of Homo sapiens with 15 samples.

Results

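The genes examined were 42 mesenchymal and extracellular matrix genes, picked by symbol from the 61544 genes of the count table. All 42 symbols were found once. They cover transcription factors of the epithelial-mesenchymal transition (EMT), filament and surface proteins, actin-binding and contractile proteins, collagens, matrix glycoproteins, lysyl oxidases, and genes of TGF-beta and activin signaling. HCC95 is an established human lung squamous cell carcinoma (LUSC) line. Cells received a small interfering RNA (siRNA), a short double-stranded RNA that directs cleavage of a matching mRNA, against TP63 (siTP63b), SOX2 (siSOX2b), KLF5 (siKLF5b) or GRHL2 (siGRHL2a), or a negative control siRNA (siNC1). Each of the 5 groups had 3 RNA-seq libraries of poly(A) RNA. One siRNA per factor was sequenced, and nothing in the labels says whether libraries of a group came from separate cultures, so p-values measure the spread between these libraries alone.

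Epithelial cells are held together by E-cadherin junctions and keratin filaments. In EMT, repressors of the SNAI, TWIST and ZEB families lower junction genes, and the cell takes up vimentin filaments, N-cadherin, contractile proteins and a secreted matrix of fibrillar collagen and fibronectin. TGF-beta is the best known inducer. Carcinoma cells often carry only a part of this program. KLF5, TP63, SOX2 and GRHL2 are transcription factors of squamous epithelium, and GRHL2 is known for keeping epithelial cells epithelial.

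The column names of the table part the libraries into 2 sets, one with the 6 libraries of siNC1 and siKLF5b and one with the 9 libraries of siTP63b, siSOX2b and siGRHL2a. Library totals were 15655495 to 24845273 counts in the first set and 22255856 to 34229063 in the second. The share of even numbers, among genes with 20 to 500 counts, was 49.7% to 50.7% in the first set and 66.1% to 69.0% in the second. Between the sets, knockdown and set cannot be told apart, so siKLF5b was tested against siNC1, and the other 3 knockdowns were tested against each other. The targeted RNA was lower in its own group: TP63 had 363 ± 22.3 CPM (counts scaled to a common library size) in siTP63b against 690 ± 38.2 in siSOX2b and 831 ± 28.3 in siGRHL2a (SD, n = 3 each). KLF5 had 72.5 ± 1.13 CPM in siKLF5b against 113 ± 8.67 in siNC1, SOX2 had 8.97 ± 1.63 CPM in siSOX2b against 29.5 ± 2.23 in siTP63b, and GRHL2 had 91.3 ± 0.560 CPM in siGRHL2a against 100.2 ± 4.58 in siSOX2b (SD, n = 3 each). SOX2 was at 18.4 to 21.2 CPM in siGRHL2a, and GRHL2 at 115 to 120 CPM in siTP63b. The GRHL2 libraries of siGRHL2a, at 90.8 to 91.9 CPM, lay only slightly below those of siSOX2b, at 96.0 to 105. Reads were counted over the whole span of a gene, introns included. In 3255 of 3255 pairs of a gene lying inside another, with at least 20 counts of the inner gene in every library, the outer gene had at least as many counts in every library. An overlapping gene with at least 10% as many counts was listed for 17 of the 42 members, whose values are therefore uncertain.

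RNA levels of the members in control HCC95 cells ran from near 0 to 10554 CPM on average. In siNC1, 7 members were at 100 CPM or above, 11 at 10 to 100 CPM, 13 at 1 to 10 CPM and 11 under 1 CPM. CD44, the hyaluronan receptor (ENSG00000026508.21, hg38 chr11:35138882-35232402, plus strand), held 87.6% of the summed CPM of the members. Its libraries had 10942, 10269 and 10450 CPM in siNC1, 10954, 10201 and 10116 in siKLF5b, 10966, 11032 and 11630 in siTP63b, 11089, 11101 and 10780 in siSOX2b, and 12506, 11785 and 12443 in siGRHL2a. The libraries of siGRHL2a were all above those of the other groups. The gene CD44-AS1, on the other strand inside CD44, had 11.6% as many counts.

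Per kilobase of exon, CD44 stood at 1056 CPM in siNC1, followed by SNAI2 at 44.3, THBS1 at 33.7, CALD1 at 27.5 and FSTL1 at 12.4. The counts include introns, which the exon length leaves out, so genes with long introns may rank too high. Genes overlapping THBS1, CALD1 and FSTL1 had 87.0%, 100.3% and 97.1% as many counts, so this order is approximate. SNAI2 encodes Slug, a zinc-finger repressor of E-cadherin that normal basal keratinocytes also express (ENSG00000019549.13, hg38 chr8:48917598-48921740, minus strand). It had 148, 145 and 143 CPM in siNC1, and it was by far the most abundant EMT transcription factor of the list. TWIST1 and TWIST2, helix-loop-helix factors, had 5.63 ± 0.500 and 6.01 ± 0.683 CPM in siNC1 (SD, n = 3), and SNAI1 had 2 to 10 counts per library there.

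Vimentin RNA (VIM), the filament protein by which mesenchymal cells are usually stained, was at 2.22 ± 0.232 CPM in siNC1 (SD, n = 3) and reached no more than 6.69 CPM in any of the 15 libraries. VIM-AS1, an overlapping gene on the other strand, had 217% as many counts, so part of even this low value may be shared with it. N-cadherin (CDH2) was at 73.3 ± 1.84 CPM in siNC1 (SD, n = 3). An overlapping gene had 39.1% as many counts as CDH2.

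Of the fibrillar collagen I and III genes, COL1A1 had 2.36 ± 0.758 CPM in siNC1 (SD, n = 3; 39 to 71 counts), and COL3A1 had 2 to 26 counts over all libraries. COL1A2, COL6A3, POSTN, CNN1 and MYL9 had 0 to 10 counts in every library and did not pass the low-count filter, which left 37 members to test. A count of 0 allows up to 3 counts, by counting error alone and if each count is a single event. That is 0.0876 CPM in the deepest library and 0.192 CPM in the shallowest. For the second set, with its excess of even numbers, this was not tested, and the floor there may be higher. Collagens above 10 CPM in siNC1 were COL12A1, a fibril-associated collagen, at 138 ± 4.64 CPM and COL5A1, which regulates fibril diameter, at 19.9 ± 0.901 CPM (SD, n = 3 each). Fibronectin (FN1) was at 12.9 ± 0.846 CPM and SPARC, a collagen-binding matrix protein, at 51.8 ± 0.848 CPM (SD, n = 3 each).

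The label of the cells was checked against marker genes. All 8 squamous epithelial markers, among them KRT5, TP63 and EPCAM, were at 1 CPM or above in every group. Of 7 fibroblast markers, 2 reached 1 CPM in every group (THY1 and PDGFRB), while DCN had at most 2 counts in any library. Of the 3 smooth muscle and pericyte markers, DES had at most 4 counts, while MYH11 and RGS5 were at 19.1 ± 2.13 and 13.5 ± 0.543 CPM in siNC1. Of the 3 endothelial markers, VWF was at 14.5 ± 0.143 CPM, with at most 14 counts of CDH5 and 6 of PECAM1 in any library. Of the 3 leukocyte markers, CD68 was at 34.4 ± 1.55 CPM and PTPRC at 0.272 ± 0.0975 CPM (SD, n = 3 each), and CD3E had at most 1 count in any library. Overlapping genes had 485% as many counts as MYH11 (NDE1), 401% as RGS5 (NUF2), 1508% as CD68 and 113% as THY1 (USP2-AS1). The values of these markers are therefore uncertain. The summed CPM of the fibroblast markers was 48.1 to 57.6 in siNC1, 21.9 to 37.2 in siKLF5b, 43.7 to 53.3 in siTP63b, 52.1 to 64.5 in siSOX2b and 57.8 to 62.2 in siGRHL2a, most of it from THY1. In bulk RNA, fewer cells with a transcript and less of it per cell cannot be told apart.

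In the 4 comparisons within a set, 4 members passed the thresholds of the study, an adjusted p below 0.05 and an absolute log2 fold change (log2FC) above 0.75, at least once. They were AXL, LOXL4, CALD1 and FBN1, and the 250 bases before their RefSeq start (GRCh38.p14) are given here, 5′ to 3′ on the strand of the gene. Capitals mark CACCC and CCGCCC on either strand, the cores that KLF and SP factors are known to bind; the motifs do not overlap each other in these 4 sequences. The regions are chr19:41218973-41219222 for AXL (plus strand), chr10:98268195-98268444 for LOXL4 (minus strand), chr7:134779384-134779633 for CALD1 (plus strand) and chr15:48644971-48645220 for FBN1 (minus strand). Those of AXL and LOXL4 directly precede the span that was counted for the gene. Those of CALD1 and FBN1 lie inside the counted span, before a start within the gene, so they are not the bases before that span.
AXL: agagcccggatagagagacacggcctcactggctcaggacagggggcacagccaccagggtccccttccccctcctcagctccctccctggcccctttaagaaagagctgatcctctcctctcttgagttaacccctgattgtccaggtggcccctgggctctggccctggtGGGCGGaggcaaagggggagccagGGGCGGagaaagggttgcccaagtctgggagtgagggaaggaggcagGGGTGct
LOXL4: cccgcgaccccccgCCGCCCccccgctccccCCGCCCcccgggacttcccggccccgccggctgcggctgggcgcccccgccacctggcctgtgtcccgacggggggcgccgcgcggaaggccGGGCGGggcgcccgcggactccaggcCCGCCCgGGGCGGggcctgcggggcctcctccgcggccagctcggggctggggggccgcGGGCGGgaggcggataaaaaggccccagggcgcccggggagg
CALD1: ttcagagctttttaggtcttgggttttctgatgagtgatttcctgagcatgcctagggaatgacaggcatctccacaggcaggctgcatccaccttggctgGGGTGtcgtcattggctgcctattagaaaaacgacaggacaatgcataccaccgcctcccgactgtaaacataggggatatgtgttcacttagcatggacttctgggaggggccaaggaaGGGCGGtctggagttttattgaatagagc
FBN1: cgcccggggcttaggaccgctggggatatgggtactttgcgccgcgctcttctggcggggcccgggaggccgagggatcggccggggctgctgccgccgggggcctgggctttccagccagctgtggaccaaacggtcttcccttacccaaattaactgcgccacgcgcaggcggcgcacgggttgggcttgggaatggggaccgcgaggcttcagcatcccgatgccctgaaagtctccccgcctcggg
AXL held 1 CACCC and 2 CCGCCC, CALD1 1 of each, LOXL4 6 CCGCCC alone, and FBN1 neither. Over 35116 promoters of the same length, 54.7% held CACCC and 42.6% held CCGCCC, and among the 31 members with an entry 22 held each of them. The grainyhead core AACNNGTT, held by 3.0% of all promoters, was in 0 of the 31, and the SOX core CATTGT, held by 9.29%, was in 2. A match of letters is a description and marks no bound site.

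In siKLF5b, 2 of the 37 tested members fell past the thresholds against siNC1, the receptor tyrosine kinase gene AXL and the lysyl oxidase gene LOXL4. None rose past them by edgeR or DESeq2, and 4 were higher at an unadjusted p below 0.05. Among all genes tested, 1.37% were lower and 1.89% higher at these thresholds. By adjusted p below 0.05 alone, 10 members were lower and 2 higher, against 12.9% and 10.3% of all genes. Libraries of the groups did not overlap for 4 members that were higher and 11 that were lower, against 20% and 22.5% of all genes. The median log2FC was -0.10 over the members tested and -0.0097 over all genes.

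Among transcription factors and surface proteins in siKLF5b, the change was clearest in AXL, the receptor for GAS6 and a common companion of EMT in carcinoma (ENSG00000167601.12, hg38 chr19:41219223-41261766, plus strand). AXL had 13.6, 14.7 and 13.4 CPM in siNC1 and 7.0, 7.48 and 6.36 CPM in siKLF5b. The groups did not overlap. Its log2FC was -0.98 (standard error 0.10, adjusted p = 1.2e-08, edgeR). CDH2 fell from 73.3 ± 1.84 to 52.2 ± 2.34 CPM (SD, n = 3 each; log2FC -0.49, adjusted p = 2.9e-07, edgeR), and TWIST1 from 5.63 ± 0.500 to 3.99 ± 0.374 CPM (log2FC -0.49, adjusted p = 0.0308, edgeR). SNAI2 libraries overlapped, with 162, 143 and 162 CPM in siKLF5b, and its log2FC of 0.099 had a 95% interval of -0.034 to 0.23. For CD44 the log2FC was -0.018, with an interval of -0.11 to 0.072. VIM had a log2FC of 0.53 that did not pass the test (adjusted p = 0.0808, edgeR).

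Of the actin-binding genes, CALD1, whose product caldesmon binds actin and tropomyosin, and TPM1, a tropomyosin gene, fell slightly in siKLF5b, with log2FCs of -0.24 and -0.21. Among collagens, COL12A1 fell from 138 ± 4.64 to 89.2 ± 4.56 CPM (SD, n = 3 each; log2FC -0.63, adjusted p = 4.3e-10, edgeR), while the low-level COL5A2, a partner of COL5A1 in collagen V, rose from 1.41 ± 0.168 to 2.2 ± 0.294 CPM (log2FC 0.65, adjusted p = 0.0429, edgeR). Among glycoproteins, THBS1, which encodes thrombospondin-1 and is known to activate latent TGF-beta, and FSTL1, a secreted follistatin-like protein, fell with log2FCs of -0.20 and -0.31. The genes FSIP1 and LRRC58-DT overlap them and had 87.0% and 97.1% as many counts.

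Lysyl oxidases cross-link collagen and elastin. All 4 had a negative log2FC in siKLF5b, as did 23 of the 37 members tested. LOXL4 (ENSG00000138131.4, hg38 chr10:98247690-98268194, minus strand) had 10.9, 10.5 and 10.2 CPM in siNC1 and 5.81, 6.04 and 4.71 CPM in siKLF5b. Each knockdown library lay well below each control library (log2FC -0.92, standard error 0.13, adjusted p = 1.4e-06, edgeR). LOXL1 fell from 3.72 ± 0.598 to 2.41 ± 0.214 CPM (SD, n = 3 each; log2FC -0.62, adjusted p = 0.0104, edgeR), and LOXL1-AS1, on the other strand, had 127% as many counts. LOX and LOXL2 did not pass the test, and the genes SRFBP1 and ENTPD4, which overlap them, had 1026% and 1760% as many counts. Of the TGF-beta genes, LTBP1, which anchors latent TGF-beta in the matrix, rose with a log2FC of 0.31 (adjusted p = 0.00830, edgeR), and INHBA, PMEPA1, LTBP2 and LTBP3 did not pass.

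Some markers of more than 1 cell type were lower in siKLF5b too. The summed CPM of the 8 squamous markers was 10709 to 12254 in siNC1 and 6709 to 7774 in siKLF5b, most of it from KRT5. The log2FCs were -1.47 for KRT17, -1.29 for KRT6A and -0.69 for KRT5. At an unadjusted p below 0.05 (edgeR), 7 squamous markers were lower and 1 was higher. DSG3 rose from 116, 115 and 116 CPM in siNC1 to 136, 138 and 128 in siKLF5b. The summed smooth muscle and pericyte markers did not fall, at 31.4 to 34.8 CPM in siNC1 and 35.0 to 35.5 in siKLF5b. The leukocyte list gene CD68 had a log2FC of -0.62. Among fibroblast markers, THY1 had 49.1 ± 4.97 CPM in siNC1 and 29.5 ± 8.32 in siKLF5b, and PDGFRB 2.24 ± 0.314 and 1.23 ± 0.0852 CPM (SD, n = 3 each). The part of these markers in the result was not tested, and DCN, a defining fibroblast gene, stayed at or under 2 counts.

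**Figure D1:**
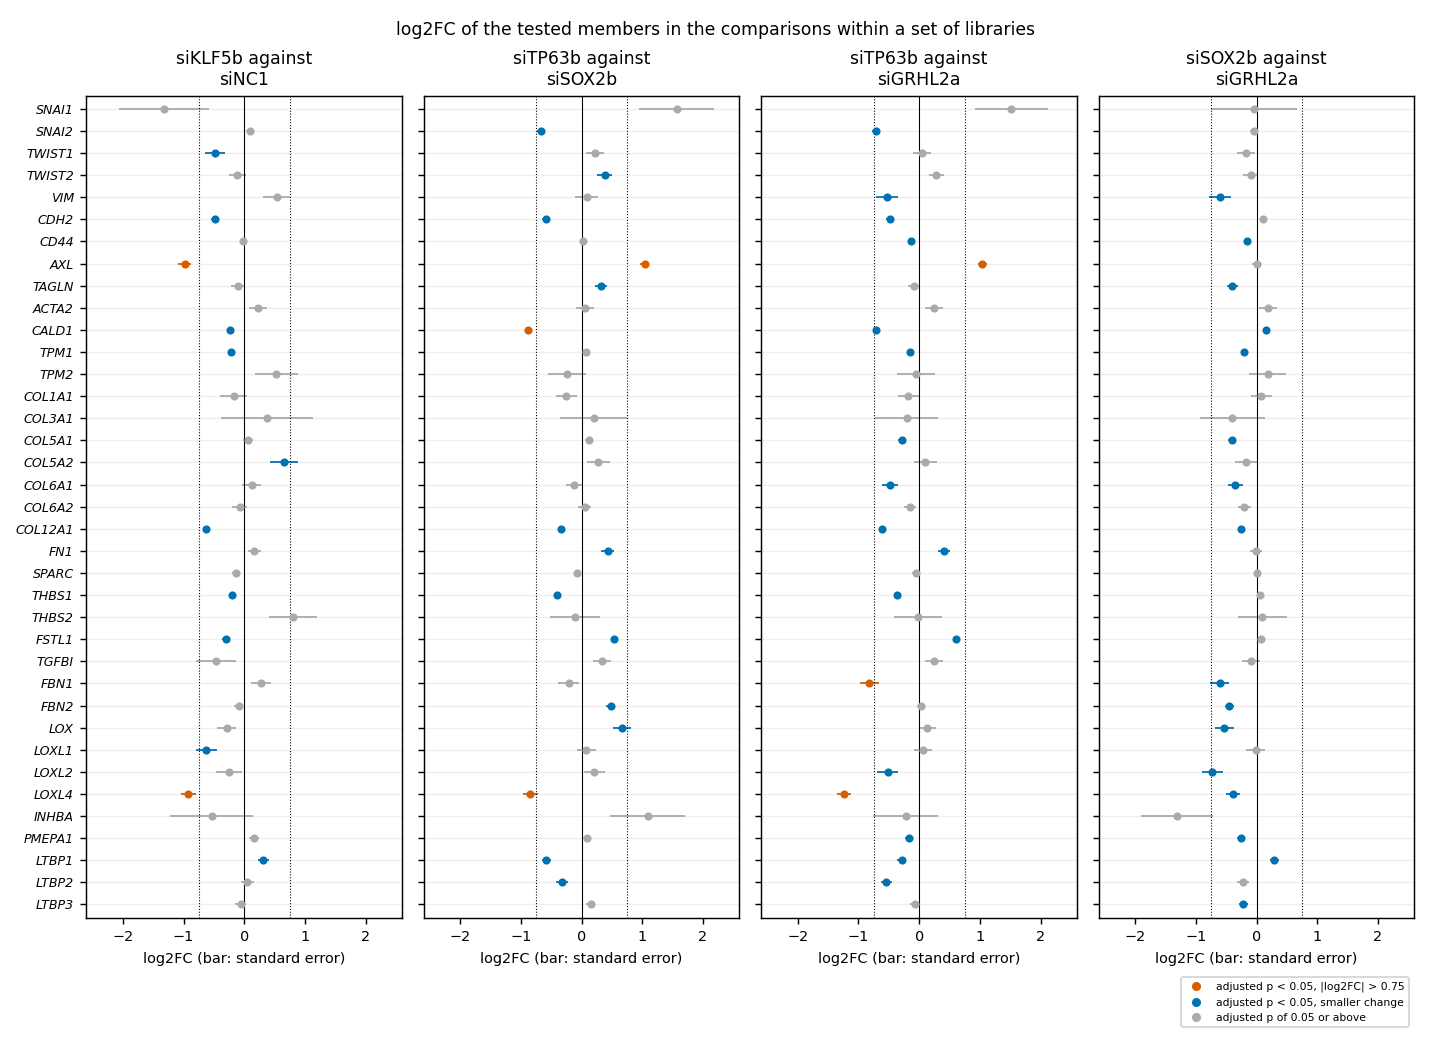
Points are log2FCs of the 37 tested members from edgeR with bars of 1 standard error, in the 4 comparisons, with dotted lines at 0.75 on either side of 0 and colors for the outcome of the test. AXL is lower in siKLF5b than in siNC1 and higher in siTP63b than in siSOX2b and siGRHL2a, LOXL4 is lower in those 3 comparisons, and no member passes both thresholds between siSOX2b and siGRHL2a.

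In siTP63b, AXL was well above its level in siSOX2b and siGRHL2a, while LOXL4, CALD1, SNAI2 and CDH2 were lower than in both. Against siSOX2b, 1 of 37 members was higher past the thresholds and 2 were lower, beside 3.88% and 2.82% of all genes tested. Against siGRHL2a, 1 was higher and 2 were lower, beside 2.18% and 3.21% of all genes. By adjusted p alone, 7 members were higher and 8 lower than in siSOX2b (16.4% and 15.4% of all genes), and 3 were higher and 16 lower than in siGRHL2a (13.6% and 13.4% of all genes). Libraries did not overlap for 12 higher and 8 lower members against siSOX2b (19.6% and 18.8% of all genes) and for 6 higher and 15 lower against siGRHL2a (17.8% and 17.8%). The median log2FC of the members was 0.076 against siSOX2b and -0.15 against siGRHL2a, beside 0.00059 and -0.0090 over all genes. Both comparisons use the same 3 siTP63b libraries. This set holds no control siRNA, so which of the knockdowns compared moved a gene cannot be told. Ratios of mean CPM to siNC1, which lies in the other set, were not tested. In siTP63b, siSOX2b and siGRHL2a they were 1.06, 1.68 and 1.74 for SNAI2, and 0.924, 1.70 and 1.52 for CALD1. For CDH2 they were 0.925, 1.40 and 1.30, for LOXL4 0.476, 0.862 and 1.12, and for AXL 6.82, 3.33 and 3.32.

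AXL had 90.2, 86.3 and 108 CPM in siTP63b, 44.8, 46.6 and 47.1 CPM in siSOX2b, and 45.5, 49.5 and 43.1 CPM in siGRHL2a. Every siTP63b library was above every library of the other knockdowns, which overlapped each other. The log2FC was 1.04 against siSOX2b (standard error 0.071, adjusted p = 5.2e-13) and 1.04 against siGRHL2a (standard error 0.071, adjusted p = 6.1e-13, both from edgeR).

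SNAI2 had 136, 148 and 177 CPM in siTP63b, 242, 245 and 248 CPM in siSOX2b, and 266, 260 and 232 CPM in siGRHL2a. The siTP63b libraries were all below the others and spread more widely. The log2FCs were -0.67 against siSOX2b and -0.72 against siGRHL2a (adjusted p = 1.3e-09 and 4.4e-10, edgeR), just short of the fold threshold. They passed it without siTP63b replicate 3, at -0.79 and -0.82, and against siGRHL2a also without siGRHL2a replicate 3, at -0.77. SNAI1 went the other way on very few counts: 6 to 18 in siTP63b, 2 to 6 in siSOX2b and 4 to 6 in siGRHL2a. Its log2FCs of 1.56 and 1.52 did not pass the test (adjusted p = 0.0522 and 0.0593, edgeR), and they passed without siTP63b replicate 2, at 1.88 and 1.85 (adjusted p = 0.0274 and 0.0298, edgeR). TWIST2 was higher than in siSOX2b, with a log2FC of 0.38, and against siGRHL2a its log2FC of 0.28 did not pass.

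N-cadherin RNA was lower as well. CDH2 had 67.8 ± 6.41 CPM in siTP63b, 102 ± 3.66 in siSOX2b and 95.0 ± 2.24 in siGRHL2a (SD, n = 3 each), with log2FCs of -0.59 and -0.49. Of the contractile genes, CALD1 (ENSG00000122786.20, hg38 chr7:134744252-134970729, plus strand) had 237, 247 and 261 CPM in siTP63b against 457, 450 and 466 in siSOX2b and 420, 412 and 396 in siGRHL2a. The siTP63b libraries were far below both. The log2FC was -0.88 against siSOX2b (standard error 0.045, adjusted p = 4.7e-16) and -0.72 against siGRHL2a (standard error 0.044, adjusted p = 6.9e-14, both from edgeR). A gene on the other strand of CALD1 had 100.3% as many counts, so reads of the pair cannot be told apart. TAGLN, which encodes the actin-binding transgelin, had a log2FC of 0.31 against siSOX2b, and PCSK7, which overlaps it, had 243% as many counts.

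Matrix genes went in both directions in siTP63b. COL12A1 had 162 ± 11.3 CPM, below 205 ± 11.6 in siSOX2b and 246 ± 7.28 in siGRHL2a (SD, n = 3 each; log2FC -0.34 and -0.60), and THBS1 had log2FCs of -0.41 and -0.36. By contrast, FSTL1 had 222 ± 12.5 CPM, above 153 ± 5.75 in siSOX2b and 146 ± 7.96 in siGRHL2a (SD, n = 3 each; log2FC 0.54 and 0.61, adjusted p = 5.5e-10 and 5.5e-11, edgeR). Fibronectin was also higher, with 17.8 ± 1.34 CPM for FN1 against 13.3 ± 0.827 and 13.4 ± 1.99 (SD, n = 3 each; log2FC 0.43 and 0.42). COL5A1 and COL6A1 were lower than in siGRHL2a, with log2FCs of -0.28 and -0.48, and did not pass against siSOX2b.

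Fibrillins form the microfibrils that elastin and LTBPs attach to. FBN1 (ENSG00000166147.15, hg38 chr15:48408313-48645721, minus strand) had 3.39, 2.38 and 3.70 CPM in siTP63b, 3.79, 3.82 and 3.32 in siSOX2b, and 5.57, 6.57 and 4.59 in siGRHL2a. Only the libraries of siGRHL2a stood apart from those of siTP63b. The log2FC against siGRHL2a was -0.82 (standard error 0.16, adjusted p = 0.000220, edgeR), and it was short of the fold threshold without siTP63b replicate 2, at -0.64, and without siGRHL2a replicate 2, at -0.69. FBN2 was higher than in siSOX2b, with 30.0 ± 0.928 against 21.5 ± 0.678 CPM (SD, n = 3 each; log2FC 0.48).

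Of the lysyl oxidases, LOXL4 had 4.83, 5.20 and 5.02 CPM in siTP63b, 8.22, 8.40 and 10.7 in siSOX2b, and 12.7, 11.2 and 11.5 in siGRHL2a. The 3 groups did not overlap, with siTP63b lowest and siGRHL2a highest. The log2FC was -0.85 against siSOX2b (standard error 0.12, adjusted p = 1.6e-06) and -1.24 against siGRHL2a (standard error 0.12, adjusted p = 8.7e-10, both from edgeR); without siSOX2b replicate 3 the first was -0.73. LOX moved the other way against siSOX2b, at 5.32 ± 0.804 and 3.34 ± 0.152 CPM (SD, n = 3 each; log2FC 0.67, adjusted p = 0.000931, edgeR), and passed the fold threshold at 0.76 without siTP63b replicate 3. SRFBP1, which overlaps LOX, had 1026% as many counts. LTBP1 and LTBP2 were lower than in both other knockdowns, with log2FCs of -0.58 and -0.29 for LTBP1 and -0.32 and -0.54 for LTBP2. The fibroblast markers THY1 and PDGFRB were lower in siTP63b too, with log2FCs of -0.31 and -0.33 for THY1 and -1.20 and -1.04 for PDGFRB. The summed squamous markers were 6904 to 7936 CPM in siTP63b, 9802 to 10802 in siSOX2b and 12322 to 12696 in siGRHL2a, and KRT17 had log2FCs of -1.17 and -1.37. The part of these markers in the results was not tested.

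**Figure D2:**
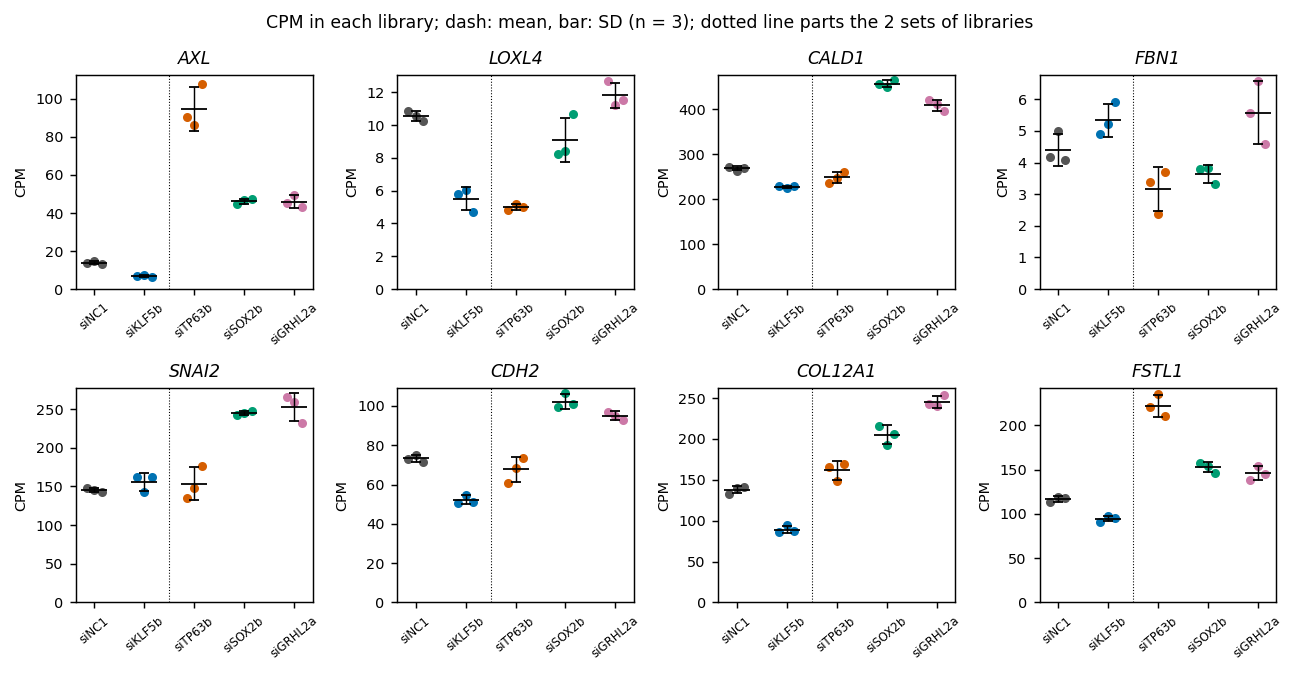
Each panel gives the CPM of a gene in every library by group, from 0, with the mean as a dash and the SD as a bar (n = 3), and a dotted line between the sets. In siTP63b, AXL lies between 86.3 and 108 CPM, above all other libraries, and CALD1, SNAI2 and CDH2 lie below siSOX2b and siGRHL2a.

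Between siSOX2b and siGRHL2a, 0 of 37 members passed both thresholds by edgeR, beside 1.05% of all genes higher and 2.27% lower. DESeq2 also called 0. At an adjusted p below 0.05 alone, 2 members were higher in siSOX2b (11.8% of all genes) and 14 were lower (12.7%), and the median log2FC was -0.17 over the members and -0.018 over all genes. Libraries did not overlap for 4 higher and 16 lower members (16.6% and 18.6% of all genes). At an unadjusted p below 0.05, 2 were higher and 16 lower. Of the 14 lower in siSOX2b, COL5A1, COL6A1 and COL12A1 had log2FCs of -0.40, -0.35 and -0.26, FBN1 and FBN2 -0.61 and -0.45, and LOX, LOXL2 and LOXL4 -0.53, -0.73 and -0.39. LOXL2 had 3.01 ± 0.0967 CPM in siSOX2b and 5.0 ± 0.571 in siGRHL2a (SD, n = 3 each). Without siGRHL2a replicate 3 its log2FC was -0.80 and passed. ENTPD4, which overlaps LOXL2 on the same strand, had 1760% as many counts. Of the remaining members, VIM (log2FC -0.61), TAGLN, TPM1, CD44, PMEPA1 and LTBP3 were lower, and CALD1 and LTBP1 were higher, with log2FCs of 0.16 and 0.29. For AXL the log2FC was 0.0032, with a 95% interval of -0.14 to 0.14, and for SNAI2 it was -0.043, with an interval of -0.17 to 0.085.

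SNAI1, ACTA2, TPM2, COL1A1, COL3A1, COL6A2, SPARC, THBS2, TGFBI and INHBA did not pass an adjusted p of 0.05 by edgeR in any of the 4 comparisons. Among them, ACTA2, the smooth muscle actin gene, lay at 3.45 to 6.42 CPM over the 15 libraries, and FAS, which overlaps it, had 325% as many counts. TPM2, another tropomyosin gene, lay at 0.461 to 1.70 CPM. THBS2, a thrombospondin gene, had 0.664 ± 0.199 CPM in siNC1 and 1.16 ± 0.182 in siKLF5b (SD, n = 3 each; log2FC 0.80, adjusted p = 0.154, edgeR), and it passed only in a fit of those 6 libraries alone. COL6A2, a collagen VI gene, had 6.23 to 8.29 CPM in siNC1 and siKLF5b and 12.7 to 17.2 CPM in the other 3 groups, and SPARC 45.1 to 58.3 CPM over all libraries.

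Set side by side across the 2 sets of libraries, 13 of the 37 tested members were higher in all 9 libraries of siTP63b, siSOX2b and siGRHL2a than in all 6 of siNC1 and siKLF5b, and 0 were lower. Among all genes tested, 14.5% were higher and 14.2% lower in this way. Since a knockdown and its set cannot be told apart here, no test was made. The list included AXL, COL1A1, COL5A1, COL6A1, COL6A2, COL12A1, THBS1, FSTL1, LOXL2, LTBP3, TAGLN, TGFBI and PMEPA1. COL6A3, which the low-count filter left out of the 37, was lower in all 9 libraries, at 0 to 0.0712 CPM against 0.126 to 0.439.

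PMEPA1 and TGFBI, known as TGF-beta targets, had the highest ratios of group mean to siNC1 among the 37 members, at 7.53 to 9.02 for PMEPA1 and 7.01 to 8.83 for TGFBI. PMEPA1, which encodes a membrane protein that dampens SMAD signaling, had 32.8 to 44.9 CPM in the 6 libraries and 258 to 356 in the 9. TGFBI, a secreted matrix protein named for its induction by TGF-beta, had 0.377 to 0.768 CPM in the 6 and 4.16 to 5.71 in the 9. No library of one set reached the other. COL5A1 had 18.9 to 21.6 and 58.1 to 86.5 CPM. For each of these genes the 3 knockdowns were far closer to one another than to siNC1. Other TGF-beta pathway genes went in both directions. The inhibitory SMAD gene SMAD7 had group means of 10.5 to 14.4 CPM in these 3 knockdowns against 4.99 in siNC1. BAMBI had 2.71 to 3.01 CPM against 3.67. Whether TGF-beta signaling differed between the sets was not tested.

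**Figure D3:**
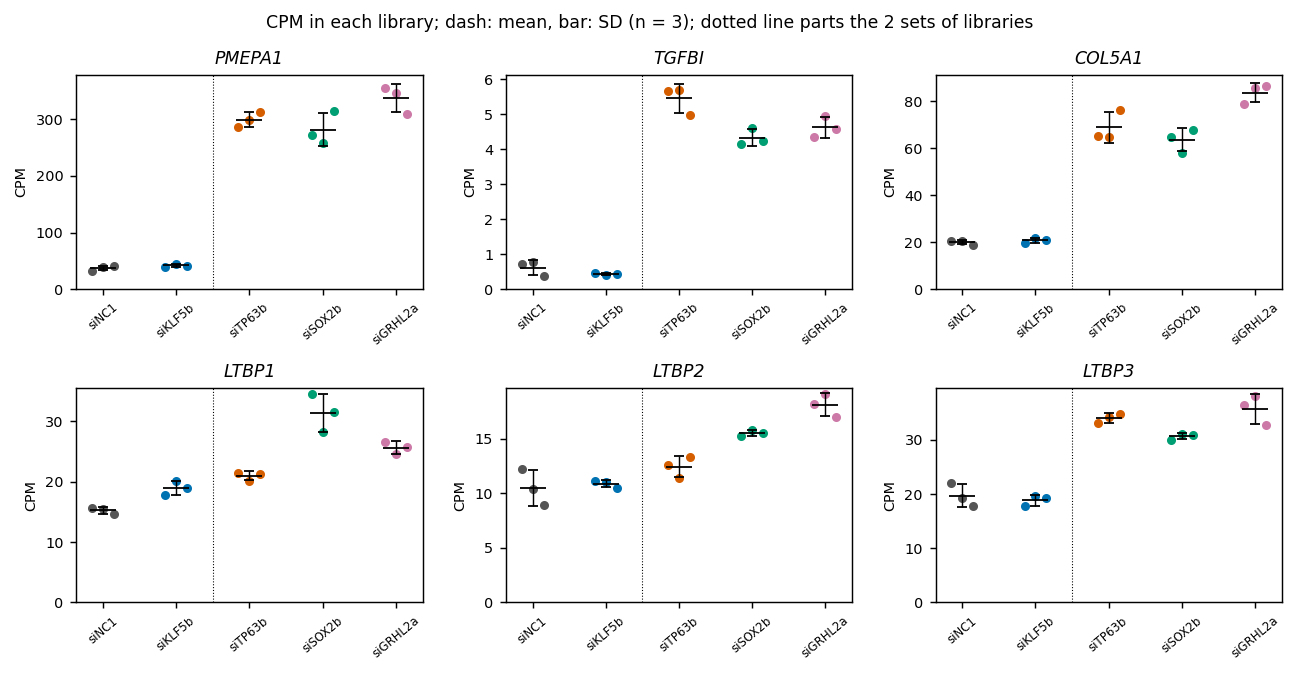
Each panel gives the CPM of a gene tied to TGF-beta signaling or to collagen V in every library by group, from 0, with the mean as a dash and the SD as a bar (n = 3), and a dotted line between the sets. PMEPA1, TGFBI, COL5A1 and LTBP3 are higher in all 9 libraries right of the line than in the 6 left of it.

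The pathway around these members was described with 28 further TGF-beta pathway genes, all of which were tested. In siKLF5b, 1 was higher past the thresholds and 2 were lower (1.89% and 1.37% of all genes), and at an adjusted p below 0.05 alone 2 were higher and 10 lower (10.3% and 12.9% of all genes). The inhibitory SMAD gene SMAD7 fell from 4.99 ± 1.46 to 2.48 ± 0.387 CPM, the activin receptor gene ACVR2B from 23.2 ± 1.07 to 12.4 ± 1.17 CPM, and CCN2, a matricellular gene, rose from 1.74 ± 0.496 to 3.16 ± 0.204 CPM (SD, n = 3 each; log2FC -0.96, -0.91 and 0.85). SMAD7 was short of the fold threshold without siNC1 replicate 2, at -0.73, and CCN2 without siNC1 replicate 1, at 0.71, or replicate 2, at 0.748. The ligand gene TGFB2 fell from 283 ± 1.02 to 175 ± 5.89 CPM (SD, n = 3 each; log2FC -0.70, adjusted p = 4.4e-13, edgeR), and SMAD3, a signal transducer, had a log2FC of -0.53.

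In siTP63b, FSTL3, an activin-binding protein, was lower than in siSOX2b and in siGRHL2a (log2FC -0.85 and -0.92; -0.71 without siSOX2b replicate 3), and INHBB, an activin subunit, was higher (1.80 and 0.95). The receptor gene TGFBR3 was higher than in siGRHL2a, with a log2FC of 1.06. Past the thresholds, 1 gene of the 28 was higher and 2 lower against siSOX2b (3.88% and 2.82% of all genes), and 2 and 2 against siGRHL2a (2.18% and 3.21%). Between siSOX2b and siGRHL2a, 0 were higher by edgeR (4 at an unadjusted p below 0.05) beside 1.05% of all genes, and INHBB alone was lower, beside 2.27% (log2FC -0.85, with overlapping libraries), a call that was lost without siSOX2b replicate 1, siSOX2b replicate 2 or siGRHL2a replicate 2.

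Enzymes that modify and fold procollagen were represented by 18 genes, all tested. In siKLF5b, 0 passed the thresholds by edgeR (1.89% of all genes were higher and 1.37% lower), with 2 higher and 5 lower at an unadjusted p below 0.05. In siTP63b, P3H1, a collagen prolyl 3-hydroxylase gene, had 7.70 ± 0.302 CPM against 16.1 ± 0.537 in siSOX2b and 17.1 ± 1.21 in siGRHL2a (SD, n = 3 each; log2FC -1.06 and -1.15, adjusted p = 1.9e-10 and 3.7e-11, edgeR). It was the 1 gene of the list past the thresholds against siSOX2b, beside 2.82% of all genes lower. Against siGRHL2a, ADAMTS2 was also lower (log2FC -0.76) and ADAMTS14 higher (log2FC 1.22), beside 3.21% and 2.18% of all genes, both procollagen N-proteinase genes with 8 to 80 counts per library in these groups. ADAMTS2 lost its call without any 1 of siTP63b replicates 2 and 3 and siGRHL2a replicates 1 and 3, and also with RLE scaling (-0.747), a replicate block (-0.744), halved counts (adjusted p = 0.0524), the 6 libraries fitted alone (adjusted p = 0.0588) or DESeq2 (adjusted p = 0.0774). ADAMTS14 lost it without siTP63b replicate 2 or siGRHL2a replicates 2 or 3, and with the 6 libraries fitted alone (adjusted p = 0.0663). At an adjusted p below 0.05 alone, siTP63b had 8 of the 18 lower and 1 higher against siSOX2b (15.4% and 16.4% of all genes), and 9 lower and 2 higher against siGRHL2a (13.4% and 13.6%), among them the prolyl 4-hydroxylase genes P4HA1 and P4HA2 and the collagen chaperone gene SERPINH1. Between siSOX2b and siGRHL2a, 0 of the 18 passed both thresholds by edgeR (1.05% of all genes higher and 2.27% lower), with 2 higher and 3 lower at an unadjusted p below 0.05.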

How the data were processed

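The deposited table held raw read counts per gene for 15 RNA-seq libraries. According to the methods and the submitters' processing notes, the authors aligned reads to hg38 with HISAT2 (2.2.1) and counted uniquely aligned reads over Gencode genes with featureCounts (2.0.1). The strand setting is not given in the sources used here. The counted length equalled the whole gene span for all 61544 genes. All 15 columns matched a sample title. Groups came from the labels.

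Counts of all 15 libraries were fitted in R (4.3.3) with edgeR (4.0.16): TMM scaling, filterByExpr, a mean per group and quasi-likelihood tests, with Benjamini-Hochberg adjustment over the 25108 genes tested. Adjusted p-values in the text are from this test. Standard errors were taken from the fold change and its F statistic. A gene was called where its adjusted p was under 0.05 and its log2FC beyond 0.75 in size. CPM used TMM-scaled totals, and exon lengths came from a later Gencode release. The code was tested on simulated counts.

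Members and lists were chosen with earlier results of these data known. Values in every library are given for members past the thresholds and for the 2 members highest per kilobase in siNC1. Up to 4 genes past the thresholds per comparison are named from each further list. Outside this rule, some genes of these lists that fell short of the fold threshold are named too. The values of 1 gene of the TGF-beta pathway list, which is in its counts, are not reported here. The values of other members are given by mean and SD, or by log2FC. Alternatives were RLE scaling, 2 other low-count filters, a replicate term, a fit of the libraries compared alone, halved counts, DESeq2 (1.42.0), no fold threshold, and each library left out.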

Additional observations from a re-analysis of the deposited data

How the results depend on the processing

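The counts of members past the thresholds were the same with RLE scaling, without a low-count filter, with at least 10 counts in every library, with halved counts and with DESeq2. With no fold-change threshold they were 2 higher and 10 lower in siKLF5b against siNC1, 7 and 8 in siTP63b against siSOX2b, 3 and 16 in siTP63b against siGRHL2a, and 2 and 14 in siSOX2b against siGRHL2a. Fitting only the 6 libraries compared gave 1 higher member in siKLF5b, THBS2. Leaving out 1 library at a time, the members past the thresholds were 0 to 0 higher and 2 to 2 lower in siKLF5b, 1 to 2 higher and 1 to 3 lower in siTP63b against siSOX2b, 1 to 2 higher and 1 to 3 lower in siTP63b against siGRHL2a, and 0 to 0 higher and 0 to 1 lower in siSOX2b against siGRHL2a. Single genes were followed only if picked by the main fit: members with an adjusted p below 0.05 or an absolute log2FC above 0.75, and list genes past both. The alternatives refit the same or nearly the same libraries, so reversals were unlikely from the start. Of these values, 1013 kept their direction and side of the thresholds, among them members uncalled in both fits. Of the rest, 8 gained and 23 lost a call, and 0 reversed. Beyond fewer libraries or genes in a fit, the cause was not tested.

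Over all genes, requiring at least 10 counts in every library, which tests fewer genes, lowered the calls in siTP63b from 973 to 620 higher and 709 to 470 lower against siSOX2b and from 547 to 355 higher against siGRHL2a. Between siSOX2b and siGRHL2a they went from 264 to 154 higher and 569 to 360 lower. Without a fold threshold, 2577 genes were higher and 3251 lower in siKLF5b (475 and 343 with it), 4111 and 3866 in siTP63b against siSOX2b, 3417 and 3375 against siGRHL2a (807 lower with it), and 2966 and 3185 in siSOX2b against siGRHL2a.

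Same-numbered libraries deviated together little, with correlations of -0.13 to 0.10. With 3 libraries per group, such low correlations cannot show whether same-numbered libraries were paired, and the main fit had no replicate block. With a replicate block the member counts were 0 higher and 2 lower in siKLF5b, 1 and 2 in siTP63b against siSOX2b, 1 and 2 against siGRHL2a, and 0 and 0 in siSOX2b against siGRHL2a. Depth limits members under 1 CPM, such as SNAI1 and INHBA.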
